A study of Mus musculus with 4 samples.

Results

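Collagen genes were evaluated in RNA-seq of 2 epithelial populations sorted from ventral lobe tips of postnatal mouse prostates. The genes were all rows of the expression table whose GRCm38 symbol reads Col, a number, the letter a and a number, and which are annotated as protein coding, without Col17a1. This rule gave 43 of the 49671 genes in the table. They comprised 11 fibrillar collagen genes, 6 type IV genes, 6 type VI genes, the 2 genes of types XV and XVIII, 9 genes of fibril-associated collagens (FACIT), 3 genes of transmembrane collagens and 6 genes of other types (VII, VIII, X, XXVI and XXVIII). Every library came from untreated CD-1 mice at postnatal day 10 to 13. Basal cells were gated on EpCAM and high CD49f and luminal cells on EpCAM and low CD49f, and cells binding antibodies against CD45, CD31 or CD140a, markers of immune, endothelial and mesenchymal cells, had been excluded. Each population had 2 libraries: basal replicate 1, basal replicate 3, luminal replicate 3 and luminal replicate 2, the order in which 4 values of a gene are listed below. Which mice gave each library is not given in the sources used here, so that p-values measure only the spread between these libraries, which may be technical.

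Collagens are secreted or membrane-bound proteins whose chains wind into helices. Fibrillar collagens form the cables of the stroma and are made mainly by fibroblasts and smooth muscle cells, and type VI collagen forms a beaded network around them. Type IV collagen is the scaffold of the basement membrane under every epithelium, where types XV, XVIII and VII bind this sheet to the tissue beneath; in the prostate the basal cells sit on this sheet and most luminal cells face the gland's lumen.

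Values are gene counts scaled by the authors to a common total of aligned reads per library, called normalised read counts here. A single read was worth 6.26, 6.50, 19.4 and 31.2 normalised read counts in the 4 libraries, as the spacing of their low values shows, so that 643187 to 3194322 reads on genes lie behind a library. Depth and cell type cannot be told apart, since both luminal libraries were shallower than both basal libraries. The labels were checked with lineage markers. The basal keratin gene Krt5 was at 18481 and 15824 in the basal libraries and at 77 and 93 in the luminal libraries, and Krt14 was at 10628, 12173, 116 and 93. Trp63, the basal transcription factor gene, was at 14611 and 5015 in basal cells and at 155 and 93 in luminal cells, and Itga6, which encodes the sorted antigen CD49f, at 20222, 16382, 4337 and 3584. Both luminal libraries were higher for Krt8 (3012, 4287, 13302 and 8320), Krt18 (5874, 6710, 17523 and 11437) and Epcam (2355, 3683, 9081 and 6170), and Krt19 was at 601 and 552 in basal cells and at 8306 and 4332 in luminal cells. Cd24a of the luminal list (4202, 5924, 8810 and 5298) and the epithelial cadherin gene Cdh1 (7997, 12647, 11811 and 7386) overlapped between the populations.

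Genes of basement membrane and anchoring collagens (Col4a1, Col4a2, Col4a6, Col7a1, Col18a1), together with Col16a1, Col8a1 and Col27a1, were at least 2-fold higher in basal cells by the ratio of group averages, whereas the main stromal genes Col1a1, Col1a2 and Col3a1 overlapped between the populations. Not all basement membrane collagens were on the basal side: Col4a3, Col4a4 and Col4a5 were not past 2-fold, and Col15a1 was higher in luminal cells. Of the 43 genes, 40 passed the filter on low values (every library of at least 1 population at 10 or more and its average at 20 or more). Of these 40, 8 were at least 2-fold higher in basal cells, against 16.3% of the 18737 genes tested, and 4 were at least 2-fold higher in luminal cells, against 18.3%. Among the 36 collagen genes that averaged 100 or more, these 8 (22.2%) and 4 genes (11.1%) can be set against 12.8% and 11.4% of all genes at that level. The difference of these shares from the background was not tested, nor was their spread over collagen types, and the counts are no result about collagen genes as a group. With limma, 2 collagen genes (Col18a1 and Col7a1) were lower in luminal cells at an adjusted p under 0.05, as were 0.438% of all genes, and 0 were higher, against 0.256% of all genes. At an unadjusted p under 0.05 these counts were 6 and 2, beside 10.7% and 7.82% of all genes. Leaving out luminal replicate 2 raised the 2-fold basal-side count to 23, and the 2-fold luminal-side count was 1, 14, 7 and 2 without basal replicate 1, basal replicate 3, luminal replicate 3 and luminal replicate 2, so that these counts depend on single libraries. Of the 8 basal-side genes, 6 stayed past 2-fold without any 1 library, with Col4a6 and Col27a1 as the exceptions, and of the 4 luminal-side genes only Col15a1 did. Both luminal libraries had a lower share of their total on nuclear protein-coding genes (57.3% and 64.2%, against 76.0% and 74.7% in the basal libraries) and a higher mitochondrial share (8.64% and 6.32% against 2.96% and 4.41%). With libraries rescaled to that nuclear total the counts past 2-fold were 6 and 5, again without Col4a6 and Col27a1; the part of these shares in the other values was not tested. Both basal libraries exceeded both luminal libraries for 9 of 40 genes (27.3% of all genes), and both luminal libraries exceeded both basal libraries for 3 (23.6%). The median limma log2 difference of luminal minus basal over the 40 genes was -0.15, beside -0.10 over all genes. Less RNA of a gene per cell and fewer cells that express it cannot be told apart in bulk libraries.

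**Figure D1:**
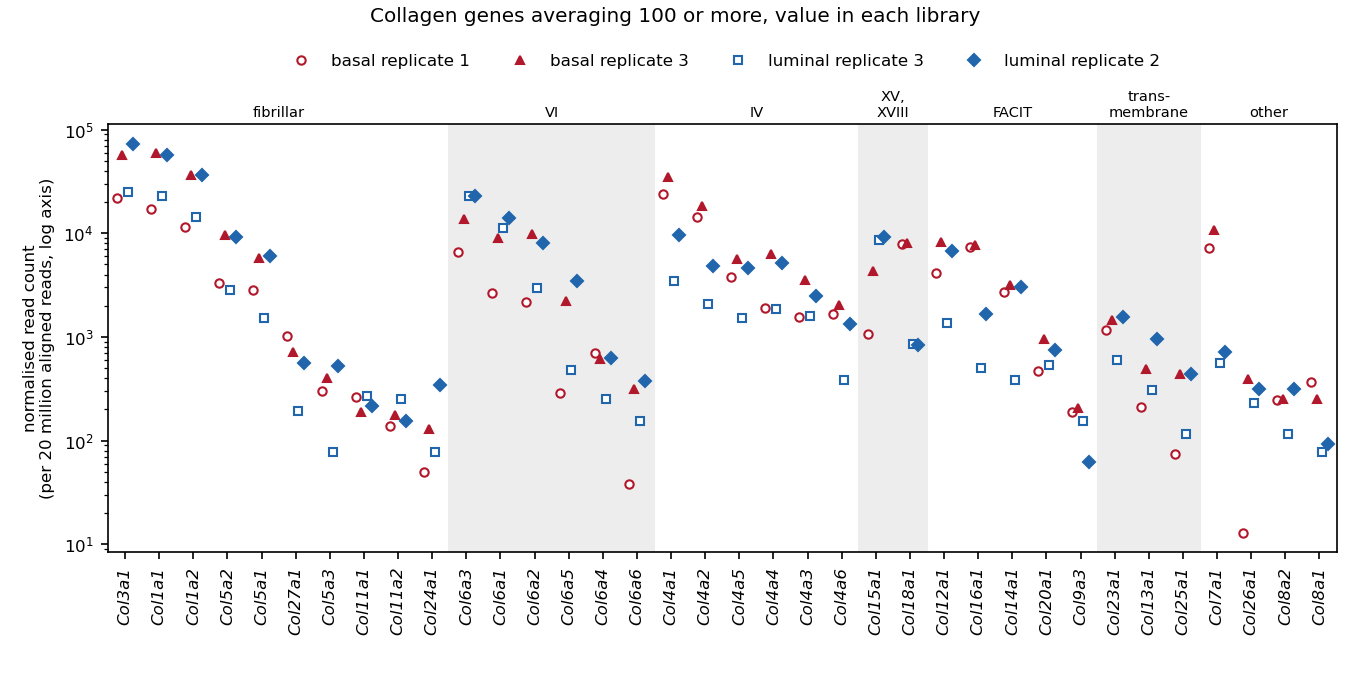
Normalised read count (log axis) of the 36 collagen genes that averaged 100 or more, grouped by collagen type, with 1 symbol per library (red, basal; blue, luminal). Col1a1 and its neighbours alternate between low (basal replicate 1, luminal replicate 3) and high libraries (basal replicate 3, luminal replicate 2), whereas both luminal values of Col18a1 and Col7a1 lie at 562 to 852 and both basal values at 7183 to 10854.

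Type IV collagen genes lie as head-to-head pairs in the genome, and the pairs differed. Col4a1 and Col4a2 encode the chains of the common network of basement membranes. On chromosome 8 of GRCm38, Col4a1 (chr8:11198423-11312826, minus strand) and Col4a2 (chr8:11312805-11449287, plus strand) start 21 bases apart and share 22 exonic bases. Col4a1 was at 23735 and 34856 in the basal libraries and at 3427 and 9629 in the luminal libraries. Col4a2 was at 14373, 18454, 2091 and 4861 in the same libraries. Neither gene overlapped between the populations, and the lowest basal value was over 2-fold above the highest luminal value for each. The average was 4.49-fold higher in basal cells for Col4a1 (3.04 to 8.55 when 1 library was left out, lowest without luminal replicate 3 and highest without luminal replicate 2) and 4.72-fold higher for Col4a2 (3.38 to 7.85, likewise). The limma log2 difference, luminal minus basal, was -2.32 ± 0.53 (SE, n = 2 and 2; limma adjusted p = 0.0858) for Col4a1 and -2.35 ± 0.44 (limma adjusted p = 0.0688) for Col4a2, so that neither passed the threshold of 0.05.

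The ratio of Col4a1 to Col4a2, with values taken per kb of exon, was similar everywhere although the levels were not. It was 1.46 and 1.67 in the basal libraries and 1.45 and 1.76 in the luminal libraries. The spread within each population was as wide as the distance between them. Whether counting used the strand is not given in the sources used here, so reads on the 22 shared bases could fall to either gene, and these are 0.295% of the exonic bases of Col4a1.

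The other type IV genes were closer between the populations. Col4a3 and Col4a4, whose chains belong to specialised basement membranes, start 72 bases apart on chromosome 1. Col4a3 was at 1541 and 3547 in basal cells and at 1588 and 2493 in luminal cells. Col4a4 was at 1898, 6262, 1878 and 5142. Both genes overlapped between populations, with basal replicate 1 and luminal replicate 3 low and the other 2 libraries high. Col4a5 and Col4a6 form the pair on the X chromosome, with starts 1309 bases apart. Col4a5 was at 3801 and 5586 in basal cells and at 1510 and 4643 in luminal cells. Col4a6 was at 1666 and 2046 in basal cells and at 387 and 1340 in luminal cells. Col4a5 overlapped, while Col4a6 did not and was 2.15-fold higher in basal cells (limma log2 difference -1.36 ± 0.60, limma adjusted p = 0.310). Its fold was 1.39 without luminal replicate 3 and 4.80 without luminal replicate 2. Col4a3 shares 563 exonic bases, 5.65% of its exonic length, with the opposite-strand gene C430014B12Rik.

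The mix of type IV chains, measured within each library, did not overlap between populations. Per kb of exon, Col4a1 exceeded Col4a5 5.62-fold in both basal libraries, and 2.04-fold and 1.87-fold in the luminal libraries. The summed value of Col4a1 and Col4a2 was 38108 and 53310 in basal cells and 5518 and 14490 in luminal cells, whereas that of Col4a3 to Col4a6 was 8906 and 17441 in basal cells and 5363 and 13618 in luminal cells. All 6 type IV genes summed to 47014 and 70751 in basal cells and to 10881 and 28108 in luminal cells, a 3.02-fold difference of averages (log2 ratio -1.59, and -1.07 without luminal replicate 3 and -2.44 without luminal replicate 2). With 2 libraries against 2, the exact permutation test (two-sided) gave p = 0.333 for this sum, which is the smallest value the design allows. Of the summed value of all collagen genes, type IV genes made up 31.0% and 21.9% in the basal libraries and 8.34% and 9.78% in the luminal libraries.

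**Figure D2:**
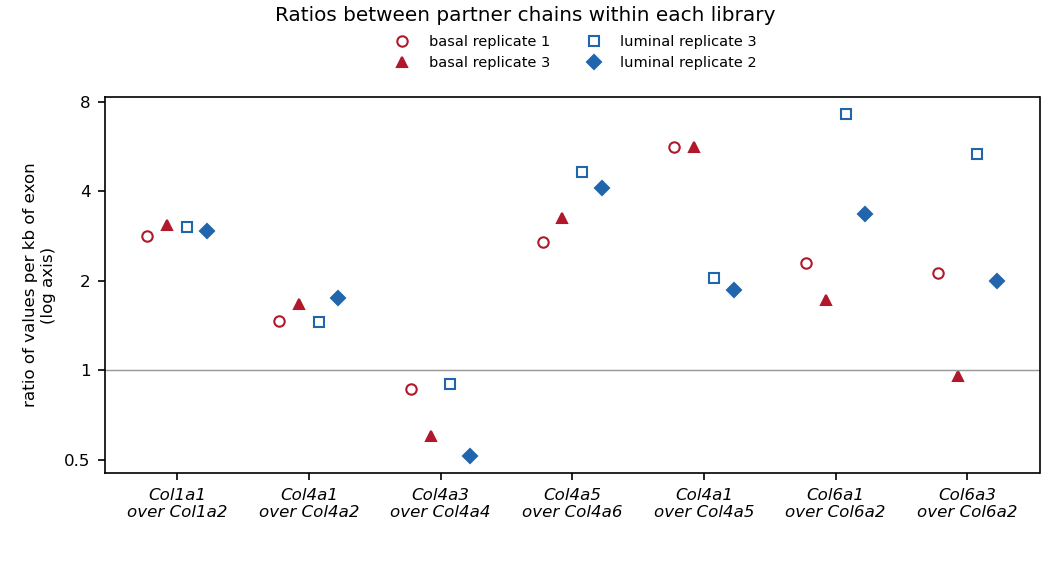
Ratio of partner chain genes, from values per kb of exon, within each library (log axis; 1 symbol per library, line at 1). Col1a1 over Col1a2 and Col4a1 over Col4a2 stay in narrow ranges (2.82 to 3.08 and 1.45 to 1.76), while Col4a1 over Col4a5 is 5.62 in both basal libraries and 1.87 to 2.04 in the luminal libraries.

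Col18a1 and Col7a1 were the collagen genes that passed the limma threshold. Col18a1 (chr10:77052178-77166548, minus strand) encodes the basement membrane collagen that contains endostatin. It was at 7928 and 8087 in the basal libraries and at 852 and 841 in the luminal libraries. The 2 libraries of each population nearly coincided, although the luminal values rest on 44 and 27 reads. The basal average was 9.46-fold higher (limma log2 difference -3.24 ± 0.21, limma adjusted p = 0.0186). Col7a1 (chr9:108953586-108984875, plus strand) encodes the chain of the anchoring fibrils that tie basement membranes to the stroma. It was at 7183 and 10854 in basal cells and at 562 and 717 in luminal cells, where 29 and 23 reads were counted. Its average was 14.1-fold higher in basal cells (limma log2 difference -3.80 ± 0.30, limma adjusted p = 0.0285), which was the largest ratio of averages among the 40 genes. Without luminal replicate 2 the limma adjusted p of Col18a1 was 0.0529, and without any 1 library that of Col7a1 was 0.0599 to 0.139. Without the filter on low values it was 0.228 for each gene, so that both calls also rest on the filter.

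Col15a1, the partner of Col18a1 in its class, went the other way. Its values were 1071 and 4320 in basal cells and 8584 and 9175 in luminal cells. Both luminal values were above both basal values, and the luminal average was 3.29-fold higher (limma log2 difference 2.04 ± 0.64, limma adjusted p = 0.182). The fold rests on the basal libraries, at 2.06 without basal replicate 1 and 8.29 without basal replicate 3. The luminal values of Col15a1 were, however, not whole multiples of the value of 1 read: in reads they came to 443.3 and 294.4. Because the members moved in opposite directions, the sum of the class was similar, at 8999, 12407, 9436 and 10016.

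Sequence upstream of genes on either side of this contrast is shown to set the basal-side genes Col7a1 and Col18a1 beside the luminal-side genes Col6a3 and Col15a1 and the stromal gene Col3a1. RefSeq promoter windows of GRCm38.p6 held 34 of the 43 genes in 37 windows. Each line gives the bases before the annotated start, 5′ to 3′ on the gene's strand, without bases that the annotation places in an exon, and capitals mark, on either strand, the TATA box searched as TATAAA, the CCAAT box and the GC box searched as GGGCGG; none of them overlap in the sequences shown.
Col7a1 (chr9:108953336-108953585, plus strand): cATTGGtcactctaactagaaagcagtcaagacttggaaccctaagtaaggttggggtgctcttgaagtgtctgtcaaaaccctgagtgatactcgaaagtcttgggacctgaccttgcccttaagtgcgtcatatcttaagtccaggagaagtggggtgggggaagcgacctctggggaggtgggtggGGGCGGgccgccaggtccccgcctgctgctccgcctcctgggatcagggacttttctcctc
Col18a1 (chr10:77166549-77166780, minus strand): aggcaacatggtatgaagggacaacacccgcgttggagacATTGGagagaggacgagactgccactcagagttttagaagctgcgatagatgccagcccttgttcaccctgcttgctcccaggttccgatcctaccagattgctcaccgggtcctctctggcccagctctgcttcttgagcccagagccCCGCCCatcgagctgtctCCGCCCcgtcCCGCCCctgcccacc
Col6a3 (chr1:90843972-90844221, minus strand): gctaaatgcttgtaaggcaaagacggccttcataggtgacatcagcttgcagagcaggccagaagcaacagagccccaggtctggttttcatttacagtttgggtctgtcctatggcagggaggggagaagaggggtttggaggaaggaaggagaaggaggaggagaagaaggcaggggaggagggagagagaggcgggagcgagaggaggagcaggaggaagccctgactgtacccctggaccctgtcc
Col15a1 (chr4:47207762-47208011, plus strand): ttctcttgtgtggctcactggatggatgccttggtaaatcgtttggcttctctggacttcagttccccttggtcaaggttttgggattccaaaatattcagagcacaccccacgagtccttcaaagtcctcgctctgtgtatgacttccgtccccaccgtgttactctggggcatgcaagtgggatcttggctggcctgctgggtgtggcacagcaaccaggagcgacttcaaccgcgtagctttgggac
Col3a1 (chr1:45311288-45311537, plus strand): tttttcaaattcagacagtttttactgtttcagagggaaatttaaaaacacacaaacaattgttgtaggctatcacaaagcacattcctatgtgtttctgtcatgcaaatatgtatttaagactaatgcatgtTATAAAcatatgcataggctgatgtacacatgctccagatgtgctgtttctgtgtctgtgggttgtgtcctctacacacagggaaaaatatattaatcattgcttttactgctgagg

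The Col7a1 window held 1 CCAAT and 1 GGGCGG, the Col18a1 stretch 1 and 3 of these motifs, and the Col3a1 window 1 TATAAA. A second RefSeq start of Col18a1 has a window (chr10:77113706-77113955) with 0 matches to any of the motifs, of which 241 bases lie in annotated exons. No match to these letters lay in the windows of Col6a3 and Col15a1. Across the 37 collagen windows of 250 bases, GGGCGG was found in 59.5%, CCAAT in 32.4% and TATAAA in 10.8%, beside 32.7%, 33.8% and 12.4% of 32851 RefSeq promoters of the same length. For Col4a1 and Col4a2 the 250 bases before each start lie entirely in annotated exons, and they are not printed.

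Among the fibrillar genes, the main stromal collagens did not separate the populations. Col1a1 and Col1a2 encode the chains of type I collagen and Col3a1 that of type III, and they had the highest levels per kb of exon in luminal cells apart from Col6a1. Col1a1 was at 17210 and 59670 in the basal libraries and at 22886 and 56436 in the luminal libraries. Col1a2 was at 11561, 36668, 14251 and 36429. Col3a1 was at 21951, 56494, 24919 and 73139. In each of the 3 genes the libraries of 1 population differed over 2-fold, and the limma log2 differences were 0.17 ± 0.72, 0.15 ± 0.69 and 0.28 ± 0.68 (limma adjusted p = 0.922, 0.929 and 0.846). These intervals are wide and do not show equal levels.

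The chains of type I collagen kept a narrow ratio. Per kb of exon, Col1a1 exceeded Col1a2 2.82-fold and 3.08-fold in basal cells and 3.04-fold and 2.93-fold in luminal cells. The height of this ratio depends on the length used, which merges all annotated exons of a gene (6.563 kb for Col1a1 and 12.426 kb for Col1a2). Its change between libraries does not depend on that length. The genes of type V collagen, which is built into type I fibrils, were likewise higher in basal replicate 3 and luminal replicate 2 than in the other libraries, but were lowest in luminal replicate 3, whereas Col1a1, Col1a2 and Col3a1 were lowest in basal replicate 1. Col5a1 was at 2812, 5814, 1530 and 6077 and Col5a2 at 3288, 9568, 2808 and 9162 over the same libraries. Col5a3 was lower, at 301, 403, 77 and 530. All of the type V genes overlapped between populations.

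Minor fibrillar genes had low values. Col11a1 and Col11a2, best known from cartilage, were at 263, 188, 271 and 218 and at 138, 175, 252 and 156. Col24a1 was at 50 and 130 in basal cells and at 77 and 343 in luminal cells, which is 4 and 11 reads, and its 2.33-fold higher luminal average came with overlapping libraries. The luminal to basal ratio was 0.856 without luminal replicate 2 and 4.20 without basal replicate 3. Col27a1 was at 1015 and 721 in basal cells and at 194 and 561 in luminal cells, and it was the fibrillar gene with a basal average over 2-fold higher (2.30-fold, and 1.55-fold without luminal replicate 3 and 4.47-fold without luminal replicate 2; limma log2 difference -1.37 ± 0.58, limma adjusted p = 0.288). Col2a1, the cartilage collagen gene, was at 0 in all 4 libraries, which allows up to 18.8 to 93.5 normalised read counts at a limit of 3 reads per library, counting error only. The summed fibrillar value was 58589 and 169831 in basal cells and 67265 and 183051 in luminal cells (log2 ratio of averages 0.13, exact permutation p = 0.667).

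Type VI genes included 2 of the 4 luminal-side genes, Col6a1 and Col6a3. Col6a1, Col6a2 and Col6a3 encode the chains of the classical heterotrimer. Col6a3 was at 6663 and 13596 in basal cells and at 22654 and 22967 in luminal cells, and it was 2.25-fold higher in luminal cells without overlap (1.68-fold without basal replicate 1 and 3.42-fold without basal replicate 3; limma log2 difference 1.26 ± 0.38, limma adjusted p = 0.164). Col6a2 was at 2186, 9854, 2962 and 7978, with overlap and a limma log2 difference of 0.07 ± 0.81. Col6a1 was at 2649 and 8951 in basal cells and at 11319 and 14040 in luminal cells (2.19-fold, and 1.42-fold without basal replicate 1 and 4.79-fold without basal replicate 3; limma log2 difference 1.37 ± 0.58, limma adjusted p = 0.288). The partners thus did not keep a common ratio: Col6a3 over Col6a2 per kb was 2.12, 0.960, 5.32 and 2.00, and Col6a1 over Col6a2 was 2.30, 1.73, 7.26 and 3.35. Both luminal values of Col6a1 lay off the whole-read spacing of their libraries, at 584.59 and 450.54 reads.

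The alternative type VI chains were lower. Col6a4 was at 708, 617, 252 and 623. Col6a5 was at 288, 2215, 484 and 3490 and its neighbour Col6a6 at 38, 318, 155 and 374. These genes overlapped between populations, and the libraries of a population differed by up to 8.37-fold for Col6a6. The summed type VI value was 12532 and 35551 in basal cells and 37826 and 49472 in luminal cells, a 1.82-fold difference of averages (log2 ratio 0.86; exact permutation p = 0.333, the smallest possible). The log2 ratio was 0.30 without basal replicate 1 and 1.80 without basal replicate 3. Without Col6a1 the sum was 9883, 26600, 26507 and 35432, and the populations overlapped.

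**Figure D3:**
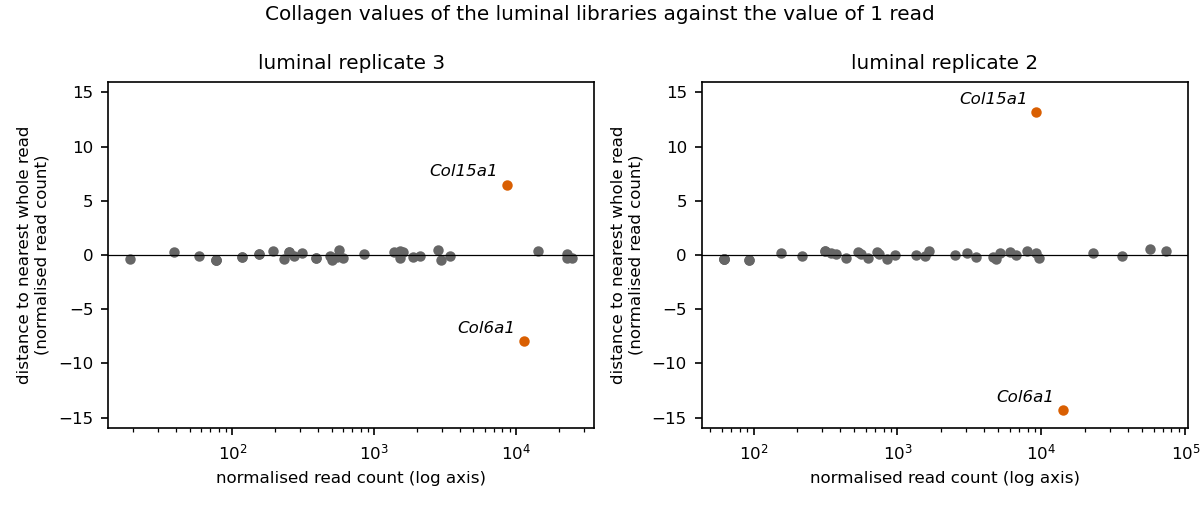
Distance of each collagen value from the nearest whole read (vertical axis, in normalised read counts) against the value itself (log axis) in luminal replicates 3 and 2. The values of Col6a1 and Col15a1 (orange) lie 6 to 15 away from a whole read in both libraries, and the other collagen values lie on one.

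The spacing sets these genes apart in both luminal libraries. In luminal replicate 3, 37 collagen values above 0 lay within 0.75 of a whole read and 2 did not, and in luminal replicate 2 the counts were 38 and 2. The exceptions in both were Col6a1 and Col15a1. Over all genes, 557 had such a value in some library. Basal libraries had such values too: 173 in basal replicate 1 and 375 in basal replicate 3, beside 257 in luminal replicate 3 and 313 in luminal replicate 2. In the basal libraries 100% of them were multiples of 6.495 (replicate 1) and 7.921 (replicate 3). Of these off-spacing values, 96.5% in luminal replicate 2 were multiples of 18.9, and 94.2% in luminal replicate 3 were multiples of 31.2, which is also what a read is worth in luminal replicate 2. The values of Col6a1 and Col15a1 were not multiples of these steps either, lying 5.18 and 7.10 away in luminal replicate 2 and 7.19 and 14.45 away in luminal replicate 3. Why these values differ was not tested. Without both genes, 2 of 38 collagen genes (Col6a3 and Col24a1) remained at least 2-fold higher in luminal cells, and 1 (Col6a3) had both luminal libraries above both basal libraries.

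Among the fibril-associated collagens, Col16a1 was the gene past 2-fold between the populations. Its protein lies at fibril surfaces and near basement membranes. Col16a1 was at 7409 and 7710 in basal cells and at 503 and 1652 in luminal cells (7.02-fold, and 4.58-fold without luminal replicate 3 and 15.03-fold without luminal replicate 2; limma log2 difference -3.05 ± 0.56, limma adjusted p = 0.0688). Col12a1 was at 4121, 8230, 1375 and 6700, and Col14a1 at 2705, 3189, 387 and 3023. In both of these tendon and stroma collagen genes the low library was luminal replicate 3, and luminal replicate 2 lay among or near the basal values. Col20a1 was at 470, 948, 542 and 748. Col9a3, a chain of cartilage type IX collagen, was at 188 and 208 in basal cells and at 155 and 62 in luminal cells, and it shares 6.07% of its exonic bases with the opposite-strand gene Tcfl5. Col9a1, Col9a2 and Col19a1 passed the filter with averages of 50.8 to 57.3, and Col22a1 was at 0 in all libraries. The summed FACIT value was 15013 and 20486 in basal cells and 3078 and 12402 in luminal cells (log2 ratio -1.20, and -0.52 without luminal replicate 3 and -2.53 without luminal replicate 2; exact permutation p = 0.333).

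Transmembrane collagen genes overlapped between populations. Col23a1 was at 1177, 1455, 600 and 1558. Col13a1, whose protein lies at cell-matrix adhesions, was at 213, 494, 310 and 966, and Col25a1 at 75, 442, 116 and 436. Their limma log2 differences were -0.44 ± 0.49, 0.75 ± 0.71 and 0.30 ± 1.08.

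The remaining types were mixed. The type VIII genes encode short network-forming chains. Col8a1 was at 369 and 253 in basal cells and at 77 and 93 in luminal cells, where only 4 and 3 reads were counted (3.66-fold; limma adjusted p = 0.183), so that its place among the 8 basal-side genes rests on few reads. Col8a2 was at 244, 253, 116 and 312. Col26a1 was at 13, 390, 232 and 312, so that its basal libraries spanned both luminal values. Col10a1 averaged 33.0 over the libraries, and Col28a1 was at 13 in basal replicate 1 and at 0 elsewhere and did not pass the filter.

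**Figure D4:**
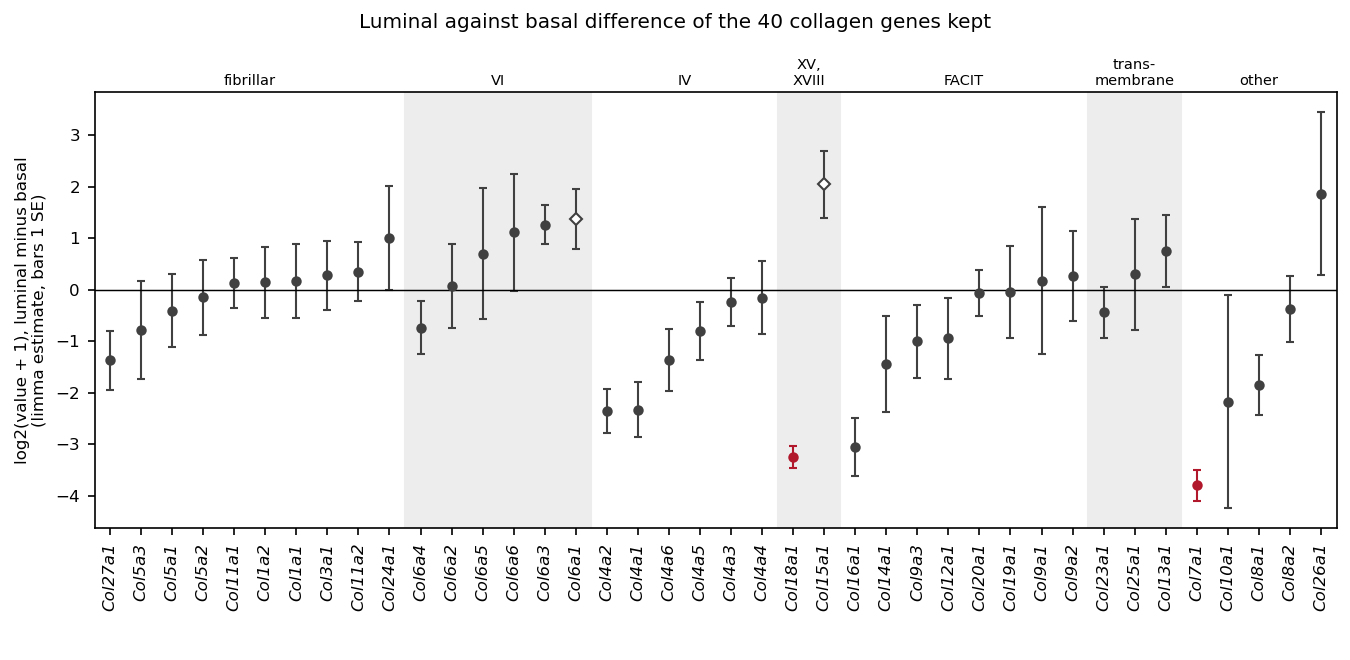
Luminal minus basal difference in log2(value + 1) for the 40 collagen genes that passed the filter, by type, as limma estimates with bars of 1 SE (n = 2 and 2). Red marks Col18a1 and Col7a1 (limma adjusted p = 0.0186 and 0.0285), and open diamonds mark Col6a1 and Col15a1, whose luminal values lie off the whole-read spacing.

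Levels of collagen genes can be ordered per kb of exon. The length merges all annotated exons of a gene and may exceed that of the expressed transcript, so that the order depends on it. In basal cells the order of averages was Col1a1 (5857 ± 4575, SD, n = 2), Col3a1 (3996 ± 2488), Col4a1 (3925 ± 1054), Col4a2 (2480 ± 436) and Col1a2 (1941 ± 1429). Neighbours in this order overlapped, apart from Col4a1 (3180 and 4670) and Col4a2 (2171 and 2788). In luminal cells it was Col1a1 (6043 ± 3615), Col3a1 (4995 ± 3474), Col6a1 (2895 ± 439), Col1a2 (2039 ± 1262) and Col6a3 (1907 ± 18.5), again with overlapping neighbours. Col4a1 ranked 3 in basal cells and 7 in luminal cells, Col18a1 ranked 7 and 22, and Col7a1 9 and 24. Col15a1 ranked 15 in basal cells and 6 in luminal cells.

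Libraries of 1 population differed together in many collagen genes. Of the 36 genes averaging 100 or more, 29 (80.6%) were higher both in basal replicate 3 than in basal replicate 1 and in luminal replicate 2 than in luminal replicate 3, as were 23.5% of all 12544 genes at that level. For Col1a1, Col1a2 and Col3a1 summed, these ratios were 3.01 and 2.68. For Col4a1, Col4a2, Col7a1, Col16a1 and Col18a1 summed they were 1.32 and 2.38, and this sum was 60628 and 79961 in basal cells against 7435 and 17700 in luminal cells. The sum of type I and III genes was 50722 and 152832 against 62056 and 166004.

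Markers of stromal cells were present in every library and moved with some of these values. The 6 fibroblast markers were above 0 in all 4 libraries and summed to 51604 and 58064 in the basal libraries and to 10823 and 35339 in the luminal libraries. Most of this sum was decorin, Dcn (45830, 47724, 5770 and 20256); the other 5 summed to 5774, 10340, 5053 and 15083, with Pdgfra, the gene of the excluded antigen CD140a, at 3307, 4144, 2575 and 8383 and Fbln1 at 1390, 3449, 1433 and 3740. Thy1 was higher in both basal libraries (745, 1221, 503 and 436), and Dpt was high in luminal replicate 2 (63, 136, 58 and 966). The 5 smooth muscle markers other than Des, including Acta2 (9770, 21949, 3640 and 19944), Myh11 (13026, 15447, 1413 and 21907) and Tagln (5355, 10426, 1278 and 12029), summed to 29867, 51525, 6777 and 58181. The fibroblast markers without Dcn and the smooth muscle markers were thus highest in luminal replicate 2, next in basal replicate 3 and lowest in luminal replicate 3, and the sum of type I and III genes was likewise highest in luminal replicate 2 and next in basal replicate 3. The part of stromal cells or their RNA in the collagen values was not tested.

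Other marker lists were lower. The 5 pericyte markers were above 0 in all libraries and summed to 3081 and 7360 in basal cells and to 716 and 3552 in luminal cells, so that the sums overlapped. Rgs5 (720, 2644, 19 and 249) and Cspg4 (833, 1137, 136 and 779) were higher in both basal libraries, as the basal-side collagen genes were, and Abcc9 (977, 2267, 116 and 1496) and Pdgfrb (526, 1299, 426 and 997) overlapped; their part in the collagen values was not tested. The 6 endothelial markers summed to 1604, 1650, 581 and 1745. Of these, 3 were higher in both basal libraries, as the basal-side collagen genes were: Pecam1, the gene of the excluded antigen CD31 (833, 637, 174 and 499), Kdr (257, 273, 213 and 93) and Egfl7 (69, 65, 0 and 0). Tek (75, 71, 155 and 312) was higher in both luminal libraries, and Cdh5 (257, 247, 0 and 249) and Emcn (113, 357, 39 and 592) overlapped. The immune list summed to 3356, 1753, 833 and 2149, most of it Cd3e (2173, 1462, 639 and 1807), with Cd68 higher in both basal libraries (288, 182, 136 and 156), Csf1r at 395, 84, 19 and 93 and Ptprc, the gene of CD45, at 150 and 6 in basal cells and at 0 in both luminal libraries. Lyz2 (344, 0, 39 and 62) and Cd79a (6, 19, 0 and 31) overlapped between the populations. The part of endothelial and immune cells in the collagen values was not tested.

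Relative to the fibroblast marker sum, collagen types differed in order. Type IV genes over fibroblast markers gave 0.911, 1.22, 1.005 and 0.795, which overlapped between populations, and FACIT genes gave 0.291, 0.353, 0.284 and 0.351. Fibrillar genes gave 1.14 and 2.92 in basal cells and 6.22 and 5.18 in luminal cells. Type VI genes (0.243 and 0.612 against 3.49 and 1.40) were likewise higher in both luminal libraries. So were types XV and XVIII (0.174 and 0.214 against 0.872 and 0.283) and transmembrane genes (0.0284 and 0.0412 against 0.0948 and 0.0838). Col16a1 gave 0.144 and 0.133 against 0.0465 and 0.0467, Col18a1 0.154 and 0.139 against 0.0787 and 0.0238, and Col7a1 0.139 and 0.187 against 0.0519 and 0.0203. Col4a1 gave 0.460 and 0.6003 against 0.317 and 0.272, and Col4a2 0.279 and 0.318 against 0.193 and 0.138. These 5 genes thus stayed higher in both basal libraries on this scale, whereas the type IV sum did not. Of the other basal-side genes, Col4a6 was lower in basal cells on this scale (0.0323 and 0.0352 against 0.0358 and 0.0379), and Col27a1 and Col8a1 overlapped. Col4a5 was also lower in basal cells, at 0.0737 and 0.0962 against 0.140 and 0.131. The scale rests mostly on Dcn. Over the fibroblast markers without Dcn, type IV genes gave 8.14 and 6.84 in basal cells and 2.15 and 1.86 in luminal cells, and FACIT genes 2.60 and 1.98 against 0.609 and 0.822, both without overlap. Fibrillar genes gave 10.1, 16.4, 13.3 and 12.1 and overlapped, so that the order of type IV, FACIT and fibrillar genes depends on Dcn. All 8 basal-side genes and Col4a5 were higher in both basal libraries on that scale. The luminal-side genes Col6a1, Col6a3, Col15a1 and Col24a1 were higher in both luminal libraries with and without Dcn.

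**Figure D5:**
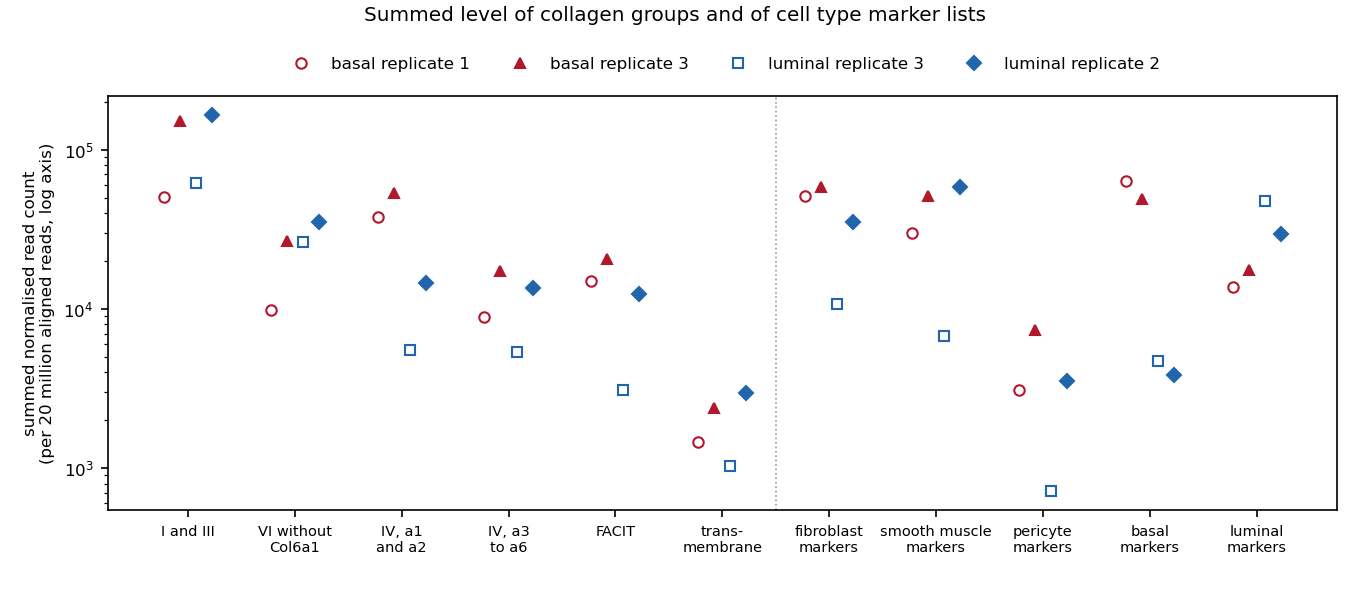
Summed normalised read count (log axis) of collagen groups (left of the dotted line) and of marker lists (right) in each library (red, basal; blue, luminal). Col4a1 and Col4a2 lie at 38108 and 53310 in basal cells and at 5518 and 14490 in luminal cells, while type I and III genes overlap, as do the smooth muscle markers.

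The list of genes that process collagen covered 36 genes for hydroxylation, folding, export, propeptide removal and cross-linking. Of the 35 that passed the filter, 5 were at least 2-fold higher in basal cells and 3 in luminal cells, beside the 16.3% and 18.3% of all genes; with limma 0 had an adjusted p under 0.05, and at an unadjusted p under 0.05 there were 5 lower and 2 higher in luminal cells, beside 10.7% and 7.82% of all genes. Pxdn, peroxidasin, which forms the sulfilimine cross-links of type IV collagen, was at 5448 and 6470 in basal cells and at 987 and 1963 in luminal cells (limma log2 difference -2.09 ± 0.37, limma adjusted p = 0.0688). Serpinh1, the collagen chaperone gene, was at 3388, 4359, 949 and 2431 and Bmp1, a propeptide protease gene, at 1904, 2702, 503 and 1652. These 3 genes had both basal libraries above both luminal libraries.

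Other processing genes went the other way or differed less. P4hb, a subunit of prolyl hydroxylase, was at 4064 and 5002 in basal cells and at 7358 and 5703 in luminal cells. Tmem131, which helps export collagen, was at 4716, 5067, 3156 and 3366. Loxl1, a lysyl oxidase gene, was at 276 and 689 in basal cells and at 943 and 1423 in luminal cells, but it was among the genes with values off the whole-read spacing.

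Genes of collagen receptors were set beside those of their ligands. Of 12 receptor genes, 10 passed the filter, 4 were at least 2-fold higher in basal cells (16.3% of all genes), 1 was so in luminal cells (18.3%), and both basal libraries exceeded both luminal libraries for 6 (27.3%); with limma 0 had an adjusted p under 0.05 and 3 had an unadjusted p under 0.05, each lower in luminal cells (10.7% of all genes). Itgb1, the shared beta chain of the collagen-binding integrins, was at 11317 and 13706 in basal cells and at 4047 and 7292 in luminal cells (limma log2 difference -1.20 ± 0.34, limma adjusted p = 0.144). Its partners Itga1 (1008, 1143, 58 and 810) and Itga2 (426, 773, 39 and 187) were also higher in both basal libraries, with luminal values resting on few reads. Adgrg6, a receptor of type IV collagen, was at 1584 and 1539 in basal cells and at 620 and 748 in luminal cells (limma log2 difference -1.20 ± 0.26, limma adjusted p = 0.0789). Of the discoidin domain receptors, Ddr1 was at 1478, 1514, 1123 and 530 and Ddr2 at 1083, 2079, 736 and 3615, and only Ddr2 overlapped between populations.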

How the data were processed

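RNA from FACS-isolated basal and luminal cells had been sequenced as Ovation Solo libraries on a NovaSeq. The authors mapped reads to GRCm38 (mm10) with STAR, counted them on genes of the Ensembl annotation with HTSeq, scaled them to equal library totals (the columns sum to about 20000000) and deposited this signal per gene and library as whole numbers; Picard is also named per the labels, without a role. Duplicate removal and use of strand in counting are not given in the sources used here. The deposited table had not been filtered, and 0 columns were left unmapped.

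GENCODE gene models of GRCm38 gave symbols, coordinates and merged exon lengths for 49412 of 49671 gene identifiers. The filter required 10 or more in each library of either population and 20 or more for its average. Groups were compared by the ratio of averages (2 and 0.5, as in the study) and by limma 3.58.1 in R 4.3.3 on log2(value + 1). The prior variance was trended, and p-values were adjusted by Benjamini-Hochberg over all 18737 genes. Log2 differences are on this scale. For low genes they can lie far from the ratio of averages, since 1 read is worth more than the pseudocount of 1. Col10a1 (31, 39, 0 and 62) had a limma log2 difference of -2.17, beside a log2 ratio of averages of -0.18. Class sums were compared by an exact permutation test. What a read is worth was found from values of up to 60 reads, 97.9% to 99.1% of which lay within 0.75 of a whole multiple; it gives 3194322, 3078789, 1036611 and 643187 reads on genes in basal replicate 1, basal replicate 3, luminal replicate 3 and luminal replicate 2. A value at 0 allows up to 3 reads; limits cover counting error only. Statistics were tested on simulated data. Python 3.11.15, numpy 2.4.6, pandas 2.3.3 and matplotlib 3.10.9 were used.

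Collagen genes averaging 100 or more are given in every library, and the other members by name or range. Of the processing, receptor and marker lists, genes at that level past the fold threshold (at most the 5 largest changes per list and direction) and the 3 highest are named; Thy1, Cspg4 and the markers at 0 were named after their values were seen. One of the marker lists is not reported here. The members, lists and tests were chosen with earlier results of these data known. Alternatives changed the filter, pseudocount (20), scaling, fold threshold (4) and prior and left out each library; leaving out genes off the read spacing, or Col6a1 and Col15a1, and the marker sum and ratios without Dcn, were added after seeing the data.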

Additional observations from a re-analysis of the deposited data

How the results depend on the processing

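Without the filter on low values limma called 0 collagen genes (7 at an unadjusted p under 0.05) and 0 of all genes (4455 at an unadjusted p under 0.05), against 2 collagen genes and 130 genes with it. With the strict filter, in which both populations had to pass, limma called 5 (Col4a1, Col4a2, Col7a1, Col16a1 and Col18a1), and the same 5 with a pseudocount of 20, with 678 and 634 calls over all genes. Limma called 1 collagen gene without any 1 library, which was Col16a1 without luminal replicate 2 and Col18a1 otherwise; a population left with 1 library is then assumed to vary like the other. Over all genes it called 312 to 991 in those fits, 544 without a trended prior, 107 after median-ratio rescaling and 136 without the genes off the read spacing. At a fold threshold of 4, 5 collagen genes were on the basal side and 0 on the luminal side, and without the genes off the read spacing, or without Col6a1 and Col15a1, 2 were at least 2-fold higher in luminal cells. The 2-fold basal-side count was 7 to 23 and the luminal-side count 1 to 14 when 1 library was left out, with the highest counts without luminal replicate 2 and without basal replicate 3.

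The log2 ratio of class sums, luminal over basal, with 1 library left out was -0.76 to 1.10 for fibrillar genes (lowest without luminal replicate 2, highest without basal replicate 3), -2.44 to -1.07 for type IV, 0.30 to 1.80 for type VI, -2.53 to -0.52 for FACIT, -0.91 to 0.62 for transmembrane and -0.35 to 0.11 for types XV and XVIII. The last of these was -3.24 without Col15a1, and 0.17 when libraries were rescaled to their nuclear protein-coding total. That rescaling shifted the all-gene median log2 difference (-0.10 before, 0.21 after), changed the collagen counts past 2-fold from 8 and 4 to 6 and 5 and the calls over all genes from 82 lower and 48 higher in luminal cells to 62 and 63, and turned Col5a2 to 0.16, Col4a3 to 0.077, Col4a4 to 0.16 and Col20a1 to 0.24, of which only Col20a1 lies above the new median. Of the 36 collagen genes named with values, 14 kept their sign in every alternative run and 22 did not. The latter, with their limma log2 differences when 1 library was left out, were Col1a1 (-0.73 to 1.06), Col1a2 (-0.69 to 0.98), Col3a1 (-0.50 to 1.05), Col5a1 (-1.40 to 0.59), Col5a2 (-0.998 to 0.71), Col5a3 (-2.16 to 0.60), Col11a1 (-0.11 to 0.37), Col24a1 (-0.068 to 2.07), Col4a3 (-0.83 to 0.37), Col4a4 (-1.01 to 0.71), Col4a5 (-1.61 to 0.011), Col6a2 (-1.02 to 1.15), Col6a5 (-0.77 to 2.17), Col6a6 (-0.40 to 2.63), Col12a1 (-2.08 to 0.20), Col14a1 (-2.92 to 0.042), Col20a1 (-0.57 to 0.44), Col13a1 (-0.066 to 1.57), Col23a1 (-1.12 to 0.25), Col25a1 (-0.97 to 1.57), Col8a2 (-1.09 to 0.33) and Col26a1 (-0.53 to 4.27). Ddr2 ranged from -1.03 to 1.27. The cause of these changes was not tested, apart from the fewer libraries.

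No paired analysis was possible because the populations share fewer than 2 replicate numbers. The planned count tests (edgeR and DESeq2) were not run, because the whole reads recovered for luminal replicate 2 were not accepted for them. Of the low values of that library 98.3% lay on the spacing, beside 97.9% in basal replicate 3. Depth is lowest in luminal replicate 3 (1036611 reads, where 3 reads are 58.1 normalised read counts) and luminal replicate 2 (643187 reads and 93.5), so that folds of genes near these values, such as Col8a1, rest on few reads.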

Other observations

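Both collagen genes with luminal values off the whole-read spacing, Col6a1 and Col15a1, were on the luminal side, and so were both genes of the processing, receptor and marker lists (91 genes) with such values in both luminal libraries. These were the lysyl oxidase gene Loxl1 (276, 689, 943 and 1423 in basal replicate 1, basal replicate 3, luminal replicate 3 and luminal replicate 2; limma log2 difference 1.41 ± 0.52, limma adjusted p = 0.241) and the muscle filament gene Des (820, 1715, 3207 and 2834; limma log2 difference 1.35 ± 0.39, limma adjusted p = 0.156). Over all genes, 174 lay off the spacing in both luminal libraries and all of them passed the filter. Of these 174, 82 (47.1%) were at least 2-fold higher in luminal cells and 12 (6.90%) at least 2-fold higher in basal cells, against 18.3% and 16.3% of all genes tested. Both luminal libraries exceeded both basal libraries for 75 (43.1%), against 23.6% of all genes. This pattern was seen after the values of Col6a1 and Col15a1 had been examined, and its cause was not tested.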
